A study of Mus musculus with 5 samples.

Results

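Immediate early and heat shock genes were followed in the knee joints of male mice that lack epiphycan and biglycan and of wildtype mice. The set has 40 genes listed by symbol: 15 immediate early transcription factors, 4 other immediate early products, 8 stress-kinase regulators and growth arrest genes, 3 glucocorticoid- and metal-responsive genes and 10 heat shock genes. All 40 had a probe set of their own among the 12393 genes measured, and each gene was read from its brightest probe set over all 5 arrays. The genes were chosen by name, not by their values, but with earlier results of these arrays known.

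Each array held total RNA pooled from the 6 tibio-femoral joints of 3 male mice, aged 3 months and of a C57/Bl6:129 hybrid strain. Wildtype joints gave 2 pools and joints of Epiphycan and Biglycan double-null animals gave 3 pools. The values came as 2 tables: one with wildtype pool 2 and double-null pool 3, the other with wildtype pool 1 and double-null pools 1 and 2. The labels do not say what separates the tables besides their platform record. The double-null label does not state how the alleles were made or whether wildtype animals were littermates, and joint tissue can hold cartilage, bone, marrow, muscle, synovium and tendon together.

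Immediate early genes are switched on within minutes of a stimulus from factors already present in the cell, with no need for new protein. Heat shock genes encode chaperones that fold or rescue proteins, and the inducible ones answer heat, lack of oxygen and damaged protein through heat shock factor 1. Both kinds of gene respond to dissection and to the time between death and lysis, so their levels are commonly read as signs of tissue handling.

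The labels were first checked with the targeted genes. On its 3 probe sets Bgn, which encodes biglycan, had signals of 2003 to 4063 in wildtype pools and 7.05 to 224 in double-null pools. The single Epyc probe set, for epiphycan, had signals of 91.2 and 78.8 in wildtype pools against 10.8, 3.38 and 1.29 in double-null pools 1, 2 and 3, below the 98.4 that the filter on dim genes set. Every array had a 2% trimmed mean signal close to 250.1. The 3'/5' ratio of the Actb control probe sets, a measure of RNA integrity, ran from 1.08 to 1.25, and that of Gapdh was 0.849 and 0.888 in the table of 2 arrays and 1.03 to 1.04 in the table of 3. The brightest of the 27 probe sets for Bacillus transcripts, used here as a ceiling of background, reached 63.5, on the array of double-null pool 2. Their highest signal on each of the other arrays was 27.5 to 38.5. Of 12 marker lists, the list for tendon and fibrous tissue held genes past the test: 7 of its 8 genes had a probe set, all 6 tested were higher in double-null pools and 2 passed, with summed signals of 5767 to 5940 in wildtype and 13266 to 15053 in double-null pools. No other marker list held a gene past the test. Summed skeletal muscle signals overlapped between genotypes but ranged widely, with 52355 and 65566 in wildtype pools 1 and 2 and 44437, 31903 and 78266 in double-null pools 1, 2 and 3.

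The heat shock genes share letters in their promoters that the choice of genes did not use. A core heat shock element, searched as GAANNTTC or TTCNNGAA on both strands from 250 bases before to 50 after the start site, occurred in 7 of the 8 heat shock genes with a RefSeq window (GRCm38.p6), against 17.0% of 27025 genes. A gene with several start sites has several windows, and here and below it counted as a match if any of them matched. Dnajb1 was the heat shock gene with a window and no match. The windows of Hspd1 and Hspe1, which lie head to head, overlap by 285 bases, so they are one stretch of sequence counted for both genes. The 250 bases before the start are shown for 4 genes with the element, as examples from either end of the range on one array. Hspe1 (chr1:55087898-55088147, plus strand), Hsph1 (chr5:149636316-149636565, minus strand) and Hspa1b (chr17:34959239-34959488, minus strand) were highest on the array of double-null pool 2, and Hspb1 (chr5:135887669-135887918, plus strand) was lowest there, as were Hspb8 and Hspd1, which also carry the letters. Dnajb1, which has no match, was also highest on that array. Capitals mark the matches.
Hspe1: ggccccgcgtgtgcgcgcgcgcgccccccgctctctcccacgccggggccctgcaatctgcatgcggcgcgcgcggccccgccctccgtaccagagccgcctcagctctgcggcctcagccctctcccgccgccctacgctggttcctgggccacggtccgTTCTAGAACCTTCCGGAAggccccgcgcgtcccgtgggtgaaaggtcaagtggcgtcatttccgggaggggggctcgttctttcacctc
Hsph1: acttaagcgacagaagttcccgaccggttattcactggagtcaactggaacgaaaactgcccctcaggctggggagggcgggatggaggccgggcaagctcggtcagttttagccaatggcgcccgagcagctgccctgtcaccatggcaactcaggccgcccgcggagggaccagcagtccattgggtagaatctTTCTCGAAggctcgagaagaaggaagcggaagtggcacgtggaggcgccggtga
Hspa1b: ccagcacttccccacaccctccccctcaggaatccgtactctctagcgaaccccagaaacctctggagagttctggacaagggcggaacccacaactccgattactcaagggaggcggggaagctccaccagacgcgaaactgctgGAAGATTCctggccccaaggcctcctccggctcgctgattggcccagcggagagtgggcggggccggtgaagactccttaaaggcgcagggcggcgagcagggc
Hspb1: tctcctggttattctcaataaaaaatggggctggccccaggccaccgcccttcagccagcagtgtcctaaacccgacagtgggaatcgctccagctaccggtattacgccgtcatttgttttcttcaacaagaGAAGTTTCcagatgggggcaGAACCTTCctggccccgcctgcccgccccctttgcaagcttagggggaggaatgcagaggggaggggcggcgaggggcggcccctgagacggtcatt
In Hspe1, 3 overlapping matches run from base -89 to base -72. In Hsph1 one match lies at -54 to -47, and a further pair lies at 15 to 27, past the bases shown. In Hspa1b the match lies at -104 to -97, and in Hspb1 the matches lie at -117 to -110 and -97 to -90.

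Fos and Ddit4, the members with the smallest p on the higher and the lower side, carried other letters. The same windows are shown for Fos (chr12:85473640-85473889, plus strand) with its TATA box, searched as TATAAA, in capitals, and for Ddit4 (chr10:59951771-59952020, minus strand) with its CCAAT boxes, read here on the opposite strand, in capitals.
Fos: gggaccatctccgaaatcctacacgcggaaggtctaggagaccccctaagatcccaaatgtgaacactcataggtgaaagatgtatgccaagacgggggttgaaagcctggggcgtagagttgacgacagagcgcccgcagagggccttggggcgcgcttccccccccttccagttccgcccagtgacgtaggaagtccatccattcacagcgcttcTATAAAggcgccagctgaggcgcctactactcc
Ddit4: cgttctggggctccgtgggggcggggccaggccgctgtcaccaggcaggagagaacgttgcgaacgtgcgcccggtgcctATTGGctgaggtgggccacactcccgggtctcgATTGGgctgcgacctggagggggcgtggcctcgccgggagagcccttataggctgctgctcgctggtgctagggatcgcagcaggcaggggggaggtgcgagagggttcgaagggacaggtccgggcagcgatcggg
The TATA letters of Fos lie at -33 to -28. The Ddit4 boxes begin at -170 and -137. The TATA letters occurred in 6 and the CCAAT letters in 19 of the 35 members with a window, against 15.7% and 41.1% of all genes. The metal response element, searched as TGCACNC or TGCGCNC, occurred in 16 members (45.7%) against 28.2% of all genes, with 3 matches in Mt1. The AP-1 site TGANTCA occurred in 0 of the 35 members against 8.97% of all genes. The palindromic glucocorticoid response element occurred in 3 members (Jund, Mt1 and Sgk1) against 0.537% of all genes. Sgk1 has several windows, and most of them lack the element. The element was not among the letters of the Tsc22d3 and Fkbp5 windows. The CArG box, bound by serum response factor, occurred in Egr2 and Zfp36, against 1.81% of all genes. The cyclic AMP response element TGACGTCA occurred in Btg2 and Dusp1, against 2.03%. A match is a description of the letters and not a site in use.

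Of the 40 genes, 36 were bright enough to be tested, and 0 of 36 passed the test between genotypes in either direction. The background was 0.121% of 7436 genes tested, or 9 genes, by limma with Benjamini-Hochberg adjustment at 0.05, and the table was a term in the fit. At an unadjusted p under 0.05, 5 of 36 were counted (13.9%), against 6.17% of all genes: Fos and Sgk1 higher in double-null pools, against 3.55% of all genes, and Ddit4, Tsc22d3 and Fkbp5 lower, against 2.62%. Fold changes are given as double-null minus wildtype in log2(signal + 32). They were positive for 18 members and negative for 18, with a median of -0.023 against -0.011 over all genes. Sizes were somewhat larger than usual, with a median absolute value of 0.19 against 0.13, and 4 of 36 lay beyond 0.5 (11.1%) against 3.87% of all genes. The scale understates changes of dim genes. In whole joints, fewer cells of a type and less RNA per cell cannot be told apart.

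**Figure D1:**
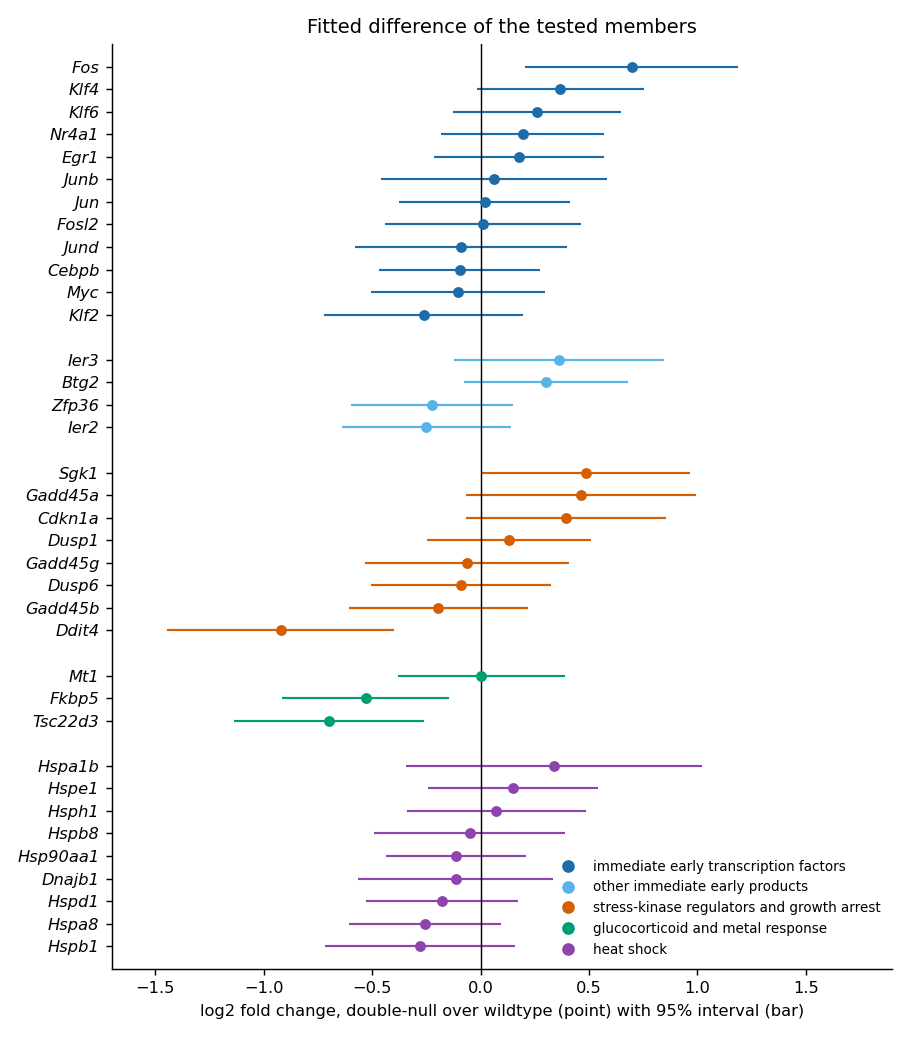
Fitted log2 fold change (point, horizontal axis) with its 95% interval (bar) for the 36 tested genes, ordered within each role group, from 2 wildtype and 3 double-null pools. The interval excludes 0 for 5 genes, Fos and Sgk1 on the higher side and Ddit4, Tsc22d3 and Fkbp5 on the lower side, and reaches past 1 in either direction for Fos, Ddit4, Tsc22d3 and Hspa1b.

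The plot of fitted differences gives the precision. For 32 of the 36 genes the 95% interval lay within 1 log2 unit on either side of 0, a 2-fold difference, and the other 4 were Fos, Ddit4, Tsc22d3 and Hspa1b. The wildtype pools lie in different tables, so the difference between them also holds any difference between tables, which the fit takes out. It exceeded the fitted difference between genotypes in 20 of 36 genes (55.6%), against 64.9% of all genes. The difference between double-null pools 1 and 2, from the same table, exceeded the fitted difference in 18 of 36 (50%), against 60.6%. With 2 pools against 3 an exact permutation test of a single gene has 10 arrangements and can give no two-sided p below 0.1.

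**Figure D2:**
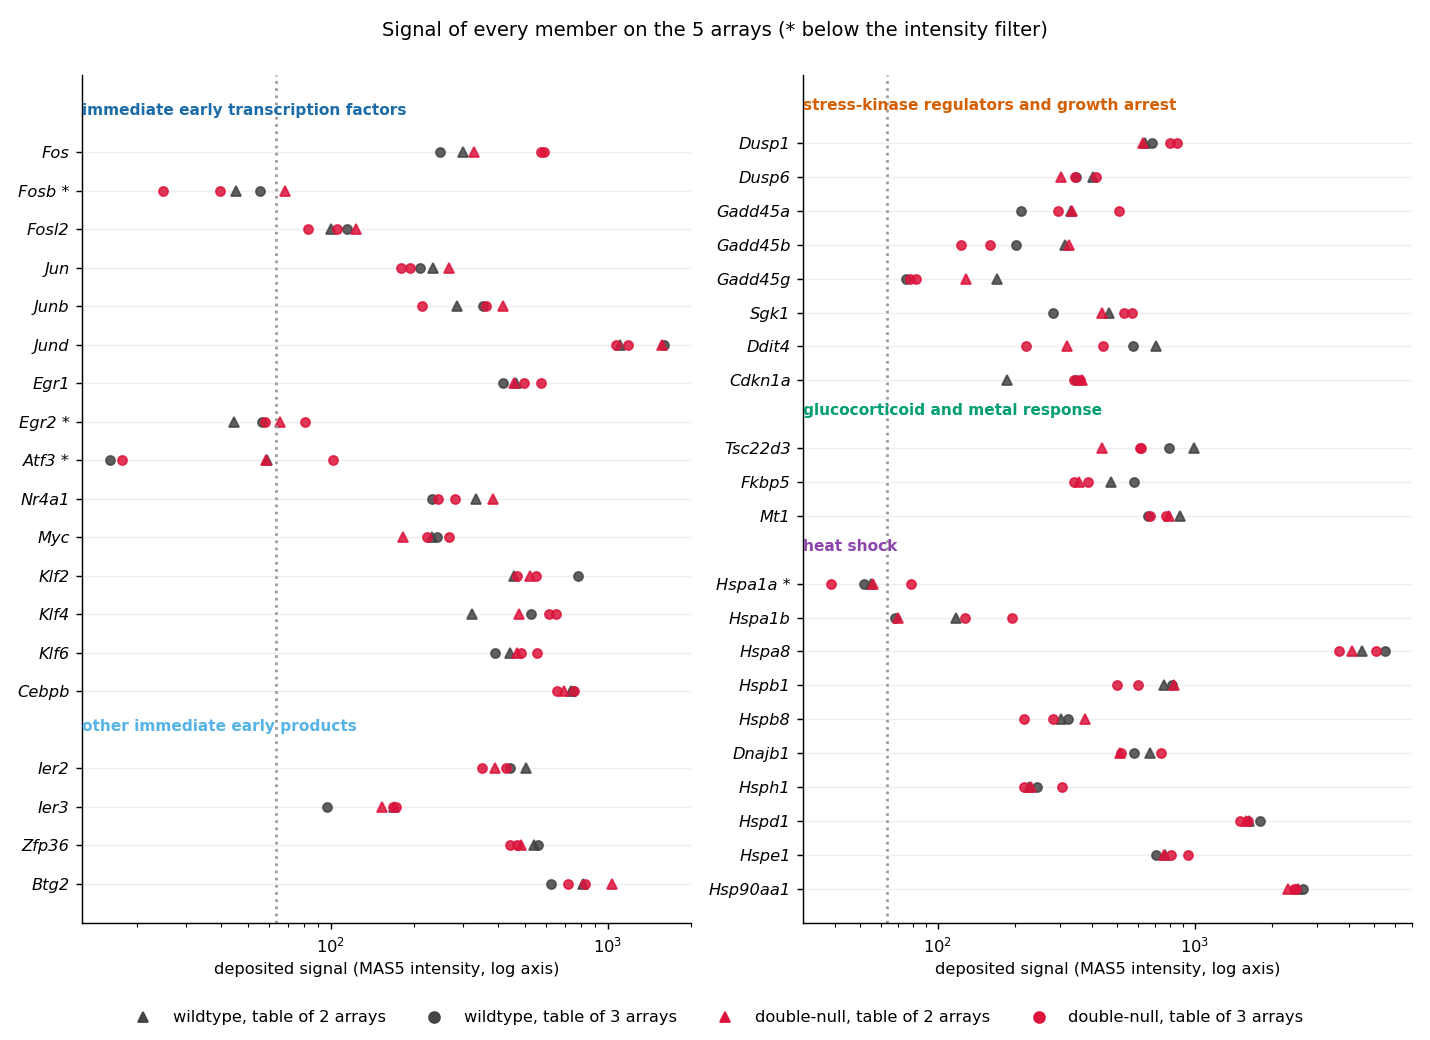
Deposited signal (horizontal, log axis) of all 40 genes on each of the 5 arrays, wildtype in grey and double-null in red, triangles for the table of 2 arrays and circles for the table of 3; the dotted line is the highest Bacillus control signal, 63.5. Genotypes overlap for most genes, and the 4 genes with an asterisk were below the intensity filter.

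Among the immediate early transcription factors, 12 of 15 were tested and their median log2 fold change was 0.039, with 8 positive and 4 negative. Fosb, Egr2 and Atf3 were below the filter. Fos, which pairs with Jun proteins to form the AP-1 factor, had signals of 247 and 301 in wildtype pools 1 and 2 and of 585, 572 and 328 in double-null pools 1, 2 and 3. All double-null pools were above both wildtype pools, but double-null pool 3 only by a little. The means were 274 ± 38.0 (SD, n = 2) and 495 ± 145 (SD, n = 3), and the log2 fold change was 0.70 (SE 0.22), a 1.62-fold level that did not pass (unadjusted p = 0.0093, adjusted p = 0.54, limma). Within the tables the difference was 1.13 in the table of 3 arrays and 0.12 in the table of 2, so it was carried by double-null pools 1 and 2 against wildtype pool 1. The tendon and fibrous list was also higher in double-null pools, as given with the marker lists, and its part in the Fos difference was not tested.

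The other AP-1 genes, the Jun family and the Fos relatives Fosl2 and Fosb, overlapped between genotypes. Jun had signals of 209 and 234 in wildtype and 193, 179 and 268 in double-null pools, with a log2 fold change of 0.018, whose sign turned under several settings. Junb had 353 and 284 against 214, 362 and 419, and its double-null pools spanned both wildtype values. Jund, the AP-1 protein made in resting cells, had 1589.7 and 1102 against 1179, 1067 and 1568, and its within-table differences pointed opposite ways, 0.53 in the table of 2 and -0.55 in the table of 3. Fosl2 was level at 114 and 100.2 against 82.5, 105 and 123, with a log2 fold change of 0.011 that also turned sign. Fosb was dim throughout, at 55.6 and 45.4 against 39.9, 24.8 and 68.4, near the Bacillus ceiling.

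The other classical early response factors that were tested were close to equal. Egr1, a zinc finger factor induced through serum response factor, had 417 and 467 in wildtype and 572, 496 and 457 in double-null pools, with a log2 fold change of 0.18 (95% interval -0.22 to 0.57). Nr4a1, an orphan nuclear receptor, had 233 and 335 against 244, 281 and 386, and its difference was 0.20 in the table of 2 and 0.19 in the table of 3. That was the closest agreement between tables among these factors, at a size of 0.19 in the fit (adjusted p = 0.96, limma). Myc had 241 and 232 against 222, 268 and 182, and Cebpb had 748 and 735 against 753, 656 and 697. Egr2 and Atf3 were dim and not tested. Egr2 had 56.2 and 44.7 in wildtype and 80.8, 57.7 and 65.7 in double-null pools, apart on the higher side but around the Bacillus ceiling. Its log2 fold change in the fit without the filter was 0.30. Atf3 had 15.9 and 58.7 against 102, 17.7 and 58.2, with overlapping groups and 0.46 in that fit.

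The Krüppel-like factors gave mixed values. Klf4 had 525 and 323 in wildtype and 648, 612 and 479.5 in double-null pools, with a log2 fold change of 0.37 (SE 0.18) that did not pass (unadjusted p = 0.058, adjusted p = 0.82, limma). Its double-null pool 3 lay below wildtype pool 1, so the groups overlapped, while both tables had the difference in the same direction, 0.55 and 0.23. The second Klf4 probe set gave 0.17, with -0.034 in the table of 2 and 0.32 in the table of 3. Klf6 had 390.4 and 442 against 556, 487 and 469.7, with groups apart and a log2 fold change of 0.26, but its 2 other probe sets gave -0.06 and -0.20. Klf2, a factor of endothelium and lymphocytes, had 781 and 457 against 468, 551 and 523: wildtype pool 1 stood above the 4 other arrays, and the difference was 0.20 in the table of 2 and -0.61 in the table of 3.

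The other immediate early products divided evenly, 2 positive and 2 negative. Zfp36, whose protein tristetraprolin speeds the decay of mRNAs with AU-rich elements, had 561 and 539 in wildtype and 471, 442 and 484 in double-null pools. The groups were apart and narrow, 549.9 ± 15.0 (SD, n = 2) against 466 ± 21.3 (SD, n = 3), yet the log2 fold change was only -0.22 (SE 0.17; adjusted p = 0.94, limma). Ier2, a nuclear early response protein, was likewise apart on the lower side, with 442 and 506 against 427, 352 and 389.6 and a log2 fold change of -0.25 (SE 0.18; adjusted p = 0.92, limma). Both were lower within each table. Btg2, an antiproliferative gene, had 626 and 815 against 718, 824 and 1039 and a log2 fold change of 0.30, while its second probe set gave -0.11. Ier3, an early response gene linked to cell survival, had 96.8 and 168 against 171, 168 and 153, so that only wildtype pool 1 stood low.

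Stress-kinase regulators and growth arrest genes held the largest difference of the set. Ddit4 (REDD1), which restrains the growth kinase mTORC1 and is induced by hypoxia, glucocorticoids and DNA damage, had signals of 573 and 708 in wildtype pools 1 and 2 and of 221, 438 and 319.5 in double-null pools 1, 2 and 3. Every double-null pool lay below both wildtype pools. The means were 640.3 ± 95.2 (SD, n = 2) and 326 ± 109 (SD, n = 3), and the log2 fold change was -0.92 (SE 0.24, 95% interval -1.44 to -0.40). It did not pass (unadjusted p = 0.0024, adjusted p = 0.29, limma) and was 61st by p among the genes tested. The difference was -1.10 in the table of 2 arrays and -0.79 in the table of 3. Without double-null pool 2, the double-null pool with the highest Ddit4 signal, the log2 fold change was -1.16 and passed (adjusted p = 0.000337, limma), with 1 residual degree of freedom. In that fit more genes passed in general, 43 higher and 12 lower, against 6 and 3 with all pools. Over all alternatives the adjusted p ran from 0.000337 to 0.999. Ddit4 has a single probe set here.

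Sgk1, a kinase gene induced by serum and glucocorticoids, had 279.7 and 465 in wildtype and 571, 531 and 437 in double-null pools, with a log2 fold change of 0.48 (SE 0.22; unadjusted p = 0.0495, adjusted p = 0.81, limma). Wildtype pool 1 was the low array. Without it the value was -0.074, and the within-table differences were -0.075 in the table of 2 and 0.90 in the table of 3. Gadd45a, a p53 target that binds PCNA, had 211 and 330.4 against 506, 294 and 333, and its log2 fold change of 0.46 (SE 0.24; adjusted p = 0.85, limma) came from the table of 3, with 0.79 there and 0.02 in the table of 2. Cdkn1a (p21), the cell cycle inhibitor induced by p53, had the reverse arrangement: 346 and 186 against 359, 340.2 and 365, with 0.88 in the table of 2 and 0.03 in the table of 3. In Cdkn1a it was wildtype pool 2 that stood low, and the 3 double-null pools lay between 340.2 and 365.

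The remaining members of this group were close to equal or inconsistent. Dusp1, the phosphatase that switches off p38 and JNK, had 681 and 638 against 800.3, 849 and 629, with a log2 fold change of 0.13. Dusp6, the phosphatase of ERK, had 345 and 401 against 411, 342 and 303. Gadd45b had 202 and 313 against 123, 159 and 324, with a log2 fold change of -0.19, and its other probe set above the filter gave 0.20. Gadd45g had 75.3 and 171 against 82.2, 78.1 and 128.3. For Gadd45b and Gadd45g the table of 2 arrays held the higher signals in both genotypes.

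Of the glucocorticoid- and metal-responsive genes, the 2 glucocorticoid targets were lower in double-null pools and metallothionein was level. Tsc22d3 (GILZ), which carries part of the anti-inflammatory action of glucocorticoids, had 794 and 989 in wildtype pools 1 and 2 and 614, 621 and 437 in double-null pools 1, 2 and 3. The groups were apart, 892 ± 138 (SD, n = 2) against 557 ± 104 (SD, n = 3), with a log2 fold change of -0.70 (SE 0.20, 95% interval -1.14 to -0.26; unadjusted p = 0.0046, adjusted p = 0.37, limma). Its difference was -1.13 in the table of 2 and -0.38 in the table of 3. A second Tsc22d3 probe set was also apart, at 626 and 609 against 482, 492 and 388 (log2 fold change -0.46), while the dimmest one was at 248 and 299.9 against 244, 245 and 274 (-0.044).

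Fkbp5, a co-chaperone of the glucocorticoid receptor and itself a receptor target, had 581 and 472 in wildtype and 386, 341 and 356 in double-null pools. The groups were apart, 527 ± 77.1 (SD, n = 2) against 361 ± 22.8 (SD, n = 3), with a log2 fold change of -0.53 (SE 0.18, 95% interval -0.92 to -0.14; unadjusted p = 0.011, adjusted p = 0.59, limma), and the tables gave -0.39 and -0.64. Its second probe set gave -0.59, with 198 and 140.0 against 84.9, 164 and 77.7, so that double-null pool 2 overlapped wildtype there. Over all alternatives Tsc22d3 ran from -1.13 to -0.38 and Fkbp5 from -0.65 to -0.39, with neither passing in any. Mt1, which binds zinc and copper, had 658 and 879.9 against 672, 775 and 792, with a log2 fold change of 0.0037. The osteoclast list had a probe set for 6 of 7 genes, with all 4 tested lower in double-null pools and 0 past the test (background 0.121%). Its summed signals were 13045 and 7946 in wildtype pools 1 and 2 and 8168, 8361 and 7474 in double-null pools 1, 2 and 3. Only wildtype pool 1 stood high, and wildtype pool 2 lay within the double-null range. The tendon and fibrous list was higher as given above. Both lists were measured beside these genes, and their part in the Ddit4, Tsc22d3 and Fkbp5 differences was not tested.

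**Figure D3:**
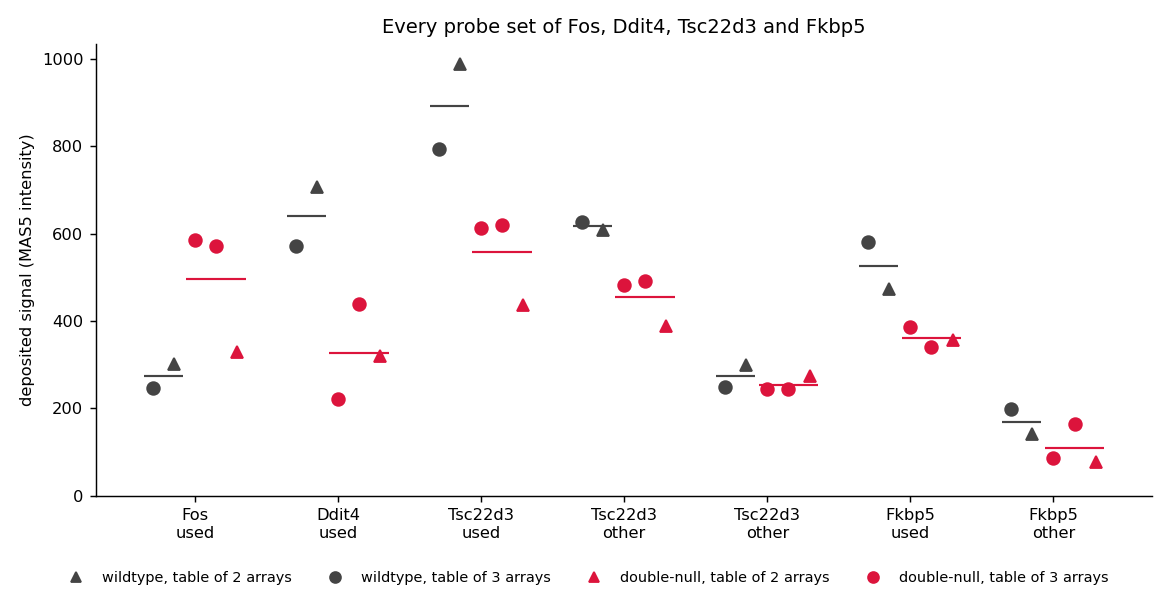
Deposited signal (vertical axis from 0) of every probe set of Fos, Ddit4, Tsc22d3 and Fkbp5 on each array, wildtype grey and double-null red, with a line at each group mean; "used" marks the probe set that stands for the gene. The 5 array values do not overlap between genotypes for the used probe set of each gene, and they overlap for the dimmest Tsc22d3 and the second Fkbp5 probe set.

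Other genes with the same inducers showed no common direction. Of 12 further glucocorticoid and metal response genes, 11 were tested, 6 were positive and 5 negative, 0 passed (background 0.121%), and their median log2 fold change was 0.019. Pdk4, a metabolic kinase gene induced by fasting and glucocorticoids, was lower, at 378 and 317 in wildtype against 265, 213 and 279.8 (log2 fold change -0.41). Cdkn1c, a cell cycle inhibitor and glucocorticoid target, was higher, at 81.1 and 100.2 against 125, 109 and 140.3 (0.43). Neither passed (adjusted p = 0.82 for each, limma), and Errfi1, an inhibitor of the EGF receptor that is also an immediate early gene, had 0.37 with overlapping groups.

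Fitted differences of the heat shock genes were small, but their 95% intervals, from -0.72 to 1.02, leave room for larger ones. Of 10, 9 were tested, with 3 positive and 6 negative and a median log2 fold change of -0.11. None had an unadjusted p under 0.05 (limma), against 6.17% of all genes, a share at which 9 genes often hold none. The constitutive chaperones were bright. Hspa8 (HSC70) had 5487 and 4459 in wildtype and 3656, 5094 and 4096 in double-null pools, with a log2 fold change of -0.25 (95% interval -0.61 to 0.10), and its other probe sets gave -0.26, 0.18 and -0.11. Hsp90aa1 had 2628 and 2516 against 2482, 2436 and 2314: the groups were apart, but the log2 fold change was -0.11 (adjusted p = 0.98, limma) and 1 of its 2 other probe sets gave 0.21. Hspd1 (HSP60), the mitochondrial chaperonin, had 1788 and 1625 against 1614, 1495 and 1576, a log2 fold change of -0.18, with wildtype pool 2 only just above double-null pool 1. Hspe1 (HSP10), its partner, shares its promoter and had 704 and 769 against 812, 945 and 759.5, a log2 fold change of 0.15 in the opposite direction.

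The inducible heat shock genes overlapped between genotypes on the probe sets used, and some varied between pools of one genotype. Hspa1a, an inducible HSP70 gene and a sensitive sign of heat shock, was below the filter. It had 51.9 and 55.1 in wildtype and 38.5, 78.5 and 55.8 in double-null pools, around the Bacillus ceiling of 63.5. Hspa1a still exceeded the Bacillus maximum of each array. Its near-identical neighbour Hspa1b had 68.3 and 117 against 127.9, 195 and 69.9, with a log2 fold change of 0.34 (95% interval -0.34 to 1.02), and it was -0.56 in the table of 2 and 1.02 in the table of 3. Probe sets for these 2 genes can read each other's transcript. Dnajb1 (HSP40), the HSP70 partner, had 578 and 671 against 515, 737 and 511, and Hsph1 (HSP110), its nucleotide exchange factor, had 244 and 226 against 216, 305 and 231.

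**Figure D4:**
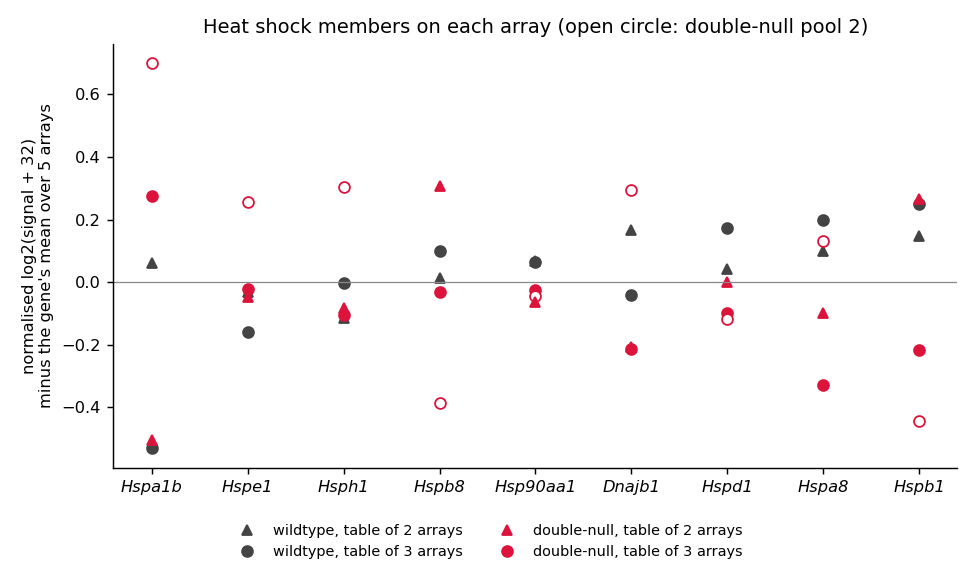
Normalised log2(signal + 32) of the 9 tested heat shock genes on each array, as the difference from the gene's own mean over the 5 arrays (vertical axis), wildtype grey and double-null red, with double-null pool 2 as open circles. Pool 2 is the highest array for Hspa1b, Hspe1, Hsph1 and Dnajb1 and the lowest for Hspb8, Hspb1 and Hspd1.

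Double-null pool 2 was the highest of the 5 arrays for Hspa1b, Hspe1, Hsph1 and Dnajb1, and the lowest for Hspb1, Hspb8 and Hspd1. For Hspd1 it was the lowest only by a little, at a normalised 10.57 against 10.58 in double-null pool 1. How often pool 2 is the highest or lowest array over all genes was not counted. The placements therefore have no background and are not a trait of heat shock genes. The genes named here are all the tested heat shock genes with a promoter window, since Hspa8 and Hsp90aa1 had none. Of these, Dnajb1 alone lacked the element letters, which genes of both the highest and the lowest placement carry. Over the 9 heat shock genes tested, pool 2 was above double-null pool 1, of the same table and genotype, in 5, against 48.6% over all genes. The median difference was 0.28, against -0.009 over all genes. These are counts from pools chosen after their values were seen, and they have no test. On the probe sets used, the small heat shock proteins went the other way in that pool. Hspb1 (HSP27) had 816 and 759.8 in wildtype and 603, 497 and 828 in double-null pools, and Hspb8 had 321 and 302 against 282, 217 and 375. Other probe sets did not all place pool 2 so. The second of Hspb1 had 217 in double-null pool 1 and 253 in pool 2, and one of Hspb8 had 88.8 and 136. A further one of Hspb8 was close to equal, at 113 and 119. The second probe sets of Hspe1 and Hsph1 had their highest signals in double-null pool 3, and that of Dnajb1 in pool 2. Both small heat shock proteins are abundant in muscle, and pool 2 also had the lowest summed skeletal muscle signal, 31903. Double-null pool 3, the highest for both on the probe sets used, had the highest, 78266. The part of muscle content in their values was not tested.

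**Figure D5:**
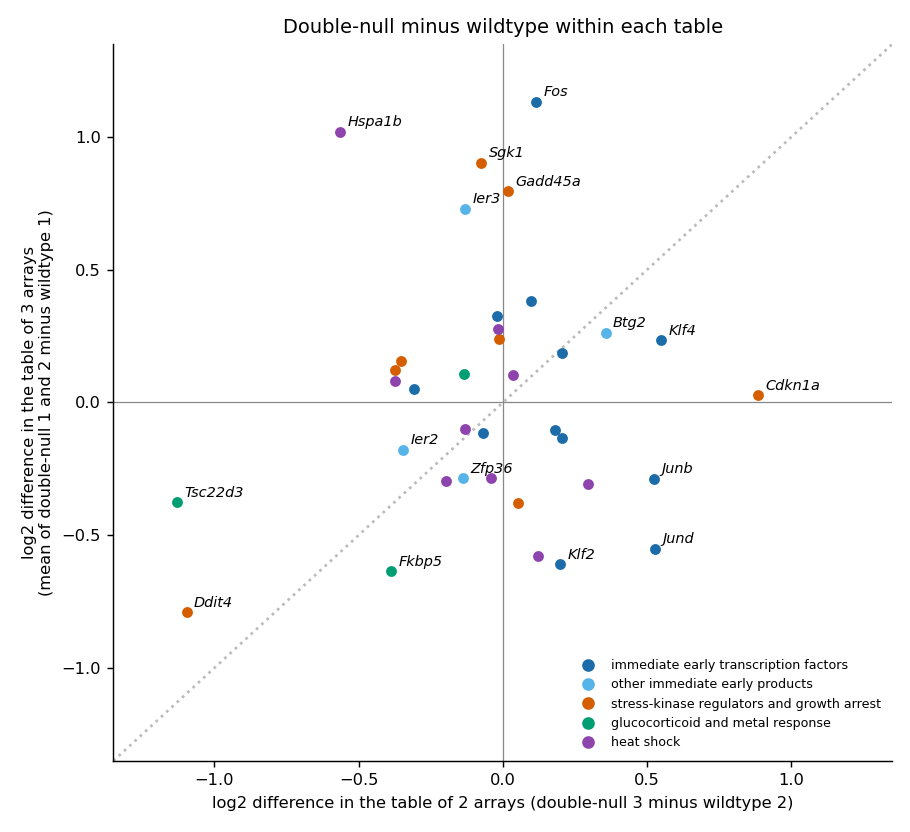
Double-null minus wildtype log2 difference in the table of 2 arrays (horizontal axis) against that in the table of 3 arrays (vertical axis) for the 36 tested genes, coloured by role, with the line of equality dotted. The 2 axes share no array; 17 of 36 genes have the same sign on both, and Ddit4, Tsc22d3 and Fkbp5 lie in the lower left.

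The 2 tables share no array, so each gives its own difference between genotypes. The sign was the same in both for 17 of 36 members (47.2%), against 47.3% of all genes, which is no more than the background. Among the 17, Ddit4, Tsc22d3 and Fkbp5 were lower in both tables, by the values given with each gene. They were singled out by their p in the fit over both tables, so a shared sign is partly built in. How many of all genes lie as low in both tables was not counted. The 19 members outside those 17 had opposite signs, and the widest gaps were those of Hspa1b, Jund and Sgk1. The role groups had small medians in both tables, 0.19 and -0.027 for the transcription factors and -0.041 and -0.10 for the heat shock genes in the tables of 2 and 3 arrays. The glucocorticoid- and metal-responsive group, of only 3 genes, had -0.39 and -0.38.

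Wider lists for the same pathways held 0 genes past the test. With 0.121% of all genes past it, lists this short rarely hold any, so these counts are not a trait of the pathways. Of 31 further immediate early genes, 21 were tested, with 8 positive and 13 negative, 0 past the test and a median of -0.043. Srf, which encodes the serum response factor that drives Fos and Egr1, had 304 and 256 in wildtype and 194, 198 and 129.8 in double-null pools (log2 fold change -0.66; adjusted p = 0.32, limma). Per1, a clock gene induced by glucocorticoids and light, had 330.3 and 222 against 159.6, 155 and 167 (-0.67; adjusted p = 0.37, limma). Both were apart on the lower side, and Socs3, a cytokine feedback inhibitor, was apart on the higher side, at 122 and 180.5 against 189.0, 291 and 186 (0.51; adjusted p = 0.81, limma). Of 28 genes of the MAP kinase cascade and dual-specificity phosphatases, 18 were tested, with 8 positive and 10 negative, 0 past the test and a median of -0.037. The smallest p-values there were those of the kinase genes Map2k3 (log2 fold change -0.31), Map3k5 (-0.35) and Mapk8, which encodes JNK1 (0.30), with an adjusted p of 0.85 each by limma.

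Of 30 further heat shock factors, chaperones and co-chaperones, 25 were tested, with 14 positive and 11 negative and a median of 0.017. Past the test were 0, against a background of 0.121% of all genes. Fkbp4, like Fkbp5 a co-chaperone of steroid receptors, was apart on the lower side, at 288 and 245 in wildtype and 136, 156 and 189.7 in double-null pools (log2 fold change -0.60; adjusted p = 0.51, limma). Hspb7, a small heat shock protein of heart and skeletal muscle, had 198 and 365 against 122, 117.6 and 207, with overlapping groups (-0.63; adjusted p = 0.37, limma). Hspb7 was higher in the table of 2 arrays in both genotypes, the table whose arrays had the 2 highest summed skeletal muscle signals. St13, an HSP70 co-chaperone, was apart on the higher side, at 179 and 157 against 323, 228 and 186 (0.41; adjusted p = 0.83, limma).

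Agreement between probe sets of one gene was limited. Of the 15 members with more than 1 probe set above the filter, 8 had probe sets with fitted values of opposite sign: Btg2, Cebpb, Dnajb1, Gadd45b, Hsp90aa1, Hspa8, Hspb8 and Klf6. Counting pools as apart on the normalised scale, 2 of 36 members were apart on the higher side (5.56%: Fos and Klf6), against 9.49% of all genes. On the lower side 8 of 36 were apart (22.2%: Ddit4, Tsc22d3, Fkbp5, Ier2, Zfp36, Cebpb, Hspd1 and Hsp90aa1), against 10.2%; the signals of Cebpb before normalisation overlapped.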

How the data were processed

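Total RNA was extracted with Trizol and columns, labelled with biotin and hybridised, per the labels' protocols. The deposited values are linear signal intensities per probe set, made by the authors with MAS5 according to the submitters' processing notes, which give no version here. Both tables hold 22690 probe sets: 20393 have 1 gene symbol in the platform annotation, 691 several and 1606 none, and 64 are controls. All 5 arrays were put on the log2(signal + 32) scale and quantile normalised together. Genes whose mean exceeded the 40th percentile, a signal of 98.4, were tested with limma 3.58.1 in R 4.3.3 (lmFit, eBayes with trend, two-sided, genotype plus table, 2 residual degrees of freedom). The code was tested on simulated data. Promoter letters come from RefSeq (GRCm38.p6). Pools are separate animals per the labels. Their number limits the precision.

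Members, lists and tests were chosen with earlier results of these data known. All members are named, and from each wider list those with the smallest p. Alternatives were the scaling as deposited, centring on the median, a smaller and a larger pseudocount, no filter, a filter at the 60th percentile, no table term, the table of 3 arrays alone, a replicate block, no trend, the mean over probe sets, and each pool left out. Replicate numbers did not pair the pools.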

Additional observations from a re-analysis of the deposited data

How the results depend on the processing

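Of 568 fitted values of the 36 members over 16 alternatives, 517 kept the direction given above and 51 turned it. 14 members kept 1 direction throughout, and the largest value that turned was 0.48 (Sgk1). The cause was not tested, beyond the fewer arrays that some settings hold.

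Counts of all genes past the test, 6 higher and 3 lower, were 2 higher with the deposited scaling, without the intensity trend, without the table term and with the larger pseudocount, 3 higher with median centring, and 1 higher and 1 lower with no filter, in the table of 3 arrays alone and with a replicate block in place of the table term. The replicate block, whose numbers are shared by pools with deviations that correlated at 0.002 and -0.18, gave medians of -0.056 for the transcription factors, -0.085 for the other early products and 0.16 for the stress-kinase group, and turned Dusp6 (0.025), Fosl2 (-0.065), Jun (-0.17), Junb (-0.14), Mt1 (-0.098), Myc (0.081) and Nr4a1 (-0.046). Both terms together leave no residual degree of freedom. The table of 3 arrays alone gave medians of -0.027 for the transcription factors and -0.38 for the glucocorticoid group, and turned Dnajb1 (0.080), Dusp6 (0.12), Fosl2 (-0.13), Jun (-0.11), Junb (-0.29) and Myc (0.052). The mean over probe sets gave medians of -0.40 for the glucocorticoid and -0.012 for the heat shock genes, and turned Gadd45b (0.092), Hsp90aa1 (0.0035), Klf6 (-0.00052) and Mt1 (-0.041). The glucocorticoid median was -0.44 with the larger pseudocount, and the other early products gave -0.22 at the 60th percentile filter. Fosl2 (-0.029) and Jun (-0.011) turned with the deposited scaling, and Jun (-0.031) and Mt1 (-0.042) without the table term.

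Leaving out each pool in turn gave 0 to 1 member past the test on the lower side (Ddit4, without double-null pool 2), 1 to 43 genes higher and 1 to 12 lower, the most without double-null pool 2. A fit that lacks wildtype pool 1 rests on the table of 2 arrays, and one that lacks wildtype pool 2 or double-null pool 3 rests on the table of 3. Medians then ran from -0.028 to 0.19 for the transcription factors, from -0.13 to 0.044 for the other early products and from -0.55 to -0.38 for the glucocorticoid group. Members that turned ran from -0.38 to 0.082 (Dnajb1), -0.013 to 0.24 (Dusp1), -0.38 to 0.12 (Dusp6), -0.021 to 0.33 (Egr1), -0.13 to 0.21 (Fosl2), -0.38 to 0.053 (Gadd45b), -0.57 to 1.02 (Hspa1b), -0.58 to 0.12 (Hspb1), -0.31 to 0.30 (Hspb8), -0.017 to 0.28 (Hspe1), -0.033 to 0.17 (Hsph1), -0.13 to 0.73 (Ier3), -0.11 to 0.18 (Jun), -0.29 to 0.53 (Junb), -0.56 to 0.53 (Jund), -0.61 to 0.20 (Klf2), -0.13 to 0.11 (Mt1), -0.31 to 0.051 (Myc) and -0.074 to 0.91 (Sgk1).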
